A study of Mus musculus with 8 samples.

Results

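The mouse array used here carries 60-base probes for intergenic regions, whose names give a chromosome, a start, an end and a strand (F for forward, R for reverse). The transcripts described are those regions whose probe was well above background on all 4 total RNA arrays, the flag that the scanner software gives a spot. Of 16181 intergenic probes 4935 met this rule (30.5%), against 22020 of the other 39500 probes (55.7%). They were chosen by total RNA intensity, so their level is a description. They lay in 2487 of 4607 stranded regions and in 2025 of 3540 regions, with 2376 probes on the forward and 2559 on the reverse strand. Each of these probes was printed in 1 spot.

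E14Tg2A is a mouse embryonic stem (ES) cell line of the 129/Ola strain, kept in serum with LIF. It was measured at 0 days of differentiation (ES) and, after neural induction in a defined medium, at 2 days as epiblast-like aggregates (ELA), at 6 days as neural progenitors (NPC) and at 10 days as neural precursors (NPC/Neu). At each stage 1 array was hybridised with total RNA and 1 with RNA that a pan-Ago antibody had precipitated (Ago-RNA), which gives 8 arrays with 1 per condition. RNA of 3 experiments was pooled on each array. No condition has a second array, so no test was run, and differences are set against the spread between repeated spots of one array, which holds neither culture nor immunoprecipitation error. The SD between spots was 0.15 to 0.16 for log2 total RNA, 0.21 to 0.23 for Ago enrichment and 0.22 for a change between stages (250 detected probes with 10 spots each). For probes with a level under 9, where most of these transcripts lie, the SD of enrichment was 0.18 to 0.26. The raw intensities had an upper quartile of 1060 to 1774 on 7 arrays, and that of ES Ago-RNA was brighter with 3039. In total RNA, the stem cell genes Pou5f1 and Zfp42 went from 15.21 and 15.97 in ES cells to 8.31 and 9.76 in NPC/Neu on the log2 scale, and the neuronal gene Tubb3 from 12.95 to 17.01. Other stem cell genes fell less, and Esrrb, Klf4 and Nanog still read 11.55, 10.90 and 10.50 in NPC/Neu. Of the genes that mark mesoderm, Kdr stood at 10.51 in ES cells and 11.94 in NPC/Neu, and T at 7.19 and 9.31. Mixl1 was detected at no stage. Of those that mark endoderm, Foxa2 went from 6.76 to 10.10, Sox17 from 6.82 to 7.16 and Gata4 from 7.64 to 6.98.

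Long intergenic noncoding RNAs are transcribed like messenger RNAs, often spliced and polyadenylated, and many stay in the nucleus. Argonaute proteins hold microRNAs and, with them, the messenger RNAs that these microRNAs pair with. Some noncoding transcripts are precursors of microRNAs or of small nucleolar RNAs, which are cut out of them in the nucleus. Ago enrichment is given here as log2 Ago-RNA minus log2 total RNA, so that 0 means equal normalized intensity on both arrays of a stage. Total RNA came from whole cells and the precipitate from the cytosolic fraction. A transcript that stays in the nucleus and one that Ago does not hold therefore cannot be told apart by this ratio.

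The probes below carry the results that follow. They are printed 5′ to 3′ in the sense of the transcript, in lower case and with coordinates of the mm9 build. The first is the region with the highest level after near copies of messenger RNAs are set aside (Malat1), the next 4 had the lowest Ago enrichment at other loci, and 1 had the highest mean enrichment of the regions with no gene at or just upstream of them. Then come the Kalrn and Maml3 introns, which rose most among introns, and a region on chromosome 13 that fell most. The last are from regions that hold microRNA or small nucleolar RNA genes.
Malat1, chr19:5802130-5802189 on the reverse strand: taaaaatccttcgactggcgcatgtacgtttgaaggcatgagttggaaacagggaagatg
Gm10060, chr8:19793528-19793587 on the forward strand: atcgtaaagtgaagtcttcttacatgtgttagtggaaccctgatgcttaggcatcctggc
no annotated gene, chr7:99882927-99882986 on the reverse strand: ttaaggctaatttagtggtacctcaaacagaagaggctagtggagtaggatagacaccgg
Jmjd1c intron, chr10:66629215-66629274 on the forward strand: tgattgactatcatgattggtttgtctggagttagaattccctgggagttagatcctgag
no annotated gene, chr17:39980645-39980704 on the reverse strand: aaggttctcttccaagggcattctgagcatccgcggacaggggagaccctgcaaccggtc
no annotated gene, chr5:143200674-143200733 on the reverse strand: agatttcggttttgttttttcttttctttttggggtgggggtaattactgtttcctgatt
Kalrn intron, chr16:34570973-34571032 on the reverse strand: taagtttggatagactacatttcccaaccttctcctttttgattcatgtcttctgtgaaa
Maml3 intron, chr3:51890726-51890785 on the reverse strand: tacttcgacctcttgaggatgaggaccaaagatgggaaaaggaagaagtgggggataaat
no annotated gene, chr13:98267374-98267433 on the forward strand: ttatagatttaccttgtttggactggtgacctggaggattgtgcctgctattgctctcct
Mir17hg, chr14:115445828-115445887 on the forward strand: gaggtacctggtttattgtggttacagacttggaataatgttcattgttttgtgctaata
Mir30b and Mir30d region, chr15:68175541-68175600 on the reverse strand: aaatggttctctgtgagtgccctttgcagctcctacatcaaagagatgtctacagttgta
Gas5, chr1:162967716-162967775 on the forward strand: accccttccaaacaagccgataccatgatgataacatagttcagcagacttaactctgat
2700023E23Rik, chr5:74489603-74489662 on the forward strand: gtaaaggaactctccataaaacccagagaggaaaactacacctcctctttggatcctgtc

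A search for AATAAA or ATTAAA, the hexamers that precede many polyadenylation sites, found neither in these 13 probes. Among the detected intergenic probes 5.90% did, against 6.27% of all intergenic probes and 18.8% of the other detected probes, counted on the printed strand only. The median GC content was 45% both for the detected probes and for all intergenic probes.

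Most of the transcripts were dim. Their median log2 total RNA was 8.45 in ES, 8.46 in ELA, 8.46 in NPC and then 8.46 in NPC/Neu, where the other detected probes had medians of 11.02, 11.06, 11.05 and 11.02. Of those with a level at every stage, 62.6% had a mean of 9 or less over the 4 stages. In 694 stranded regions every probe was detected, in 1793 only some were, and in 2120 none was. A region had up to 10 probes, with a median of 3. A further 1202 intergenic probes passed on 3 of the 4 total RNA arrays, with a median level of 7.25, and 6907 passed on none.

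The position of each probe was read from the GENCODE vM1 annotation of the same build. Of the 4935 probes, 4523 matched the genome once and 412 more than once. No gene lay at 2260 probes, on either strand or within 5000 bases of the end of a coding gene. A gene lay on the opposite strand of 760, an intron of a gene on the same strand at 741, an exon of a coding gene at 482, and an exon of a noncoding gene at 321. A further 329 lay within 5000 bases downstream of a coding gene on its strand, and 42 had no position in the files. The share detected was 25.8% where no gene lay and 25.9% opposite a gene. It was 38.5% in introns, 39.9% in noncoding exons, 43.1% downstream of coding genes and 54.9% in coding exons. Regions named as intergenic on the array thus overlapped genes of this annotation in part.

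The highest levels belonged to copies of abundant messenger RNAs and to a few noncoding RNAs. The probe of chr11:22681800-22707775 on the reverse strand, in an intron of the pseudogene Gm12057, read 18.86, 18.72, 18.71 and 18.62 in the order ES, ELA, NPC and NPC/Neu. It shares 55 of its 60 bases with the messenger RNA of Rps16, a protein of the small ribosomal subunit. The probe of chr17:48068261-48087905 on the forward strand, where no gene is annotated, read 18.53, 18.78, 18.83 and 18.50 and shares 57 bases with Mif, which encodes a secreted cytokine. Both stayed nearly level over the 4 stages.

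The region chr6:116123643-116124550 on the forward strand, the pseudogene Gm8203, read 18.36, 17.95, 18.19 and 18.30 and matches H2afz, a histone variant, at all 60 bases. The region chr17:17481706-17482457 on the reverse strand read 17.73, 17.79, 17.81 and 18.20 and matches Oaz1, the inhibitor of ornithine decarboxylase, at all 60. Malat1, a nuclear RNA of splicing speckles, read 17.90, 17.60, 17.73 and 18.97 at chr19:5801802-5802597. The region chr17:39982023-39983277 on the forward strand, with no annotated gene, read 17.23, 17.64, 17.19 and 17.91. Its 3 probes were unlike each other, with mean levels from 16.21 to 17.49 and mean Ago enrichment from -3.15 to -0.78. Neither of these last regions has a coding transcript within 5 mismatches. Copies of ribosomal or other noncoding RNAs were not searched for.

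A search of all members against coding transcripts, on the sense strand and with at most 5 mismatches, found 546. For 142 of them the transcript belonged to another gene than the one at the probe's place, and 60 of the 142 were exact. For 132 of these, the gene's own probes were detected as well (57 genes). Over the 132 pairs, mean Ago enrichment had a Pearson r of 0.68 and the total RNA change from ES to NPC/Neu an r of 0.81 between member and gene, probes of 1 gene being counted each. The median absolute difference in enrichment averaged over the stages was 0.24. The SD between spots given above is for 1 stage and is not the error of such a mean. Among the 125 members with a mean level above 14, 42 were within 5 mismatches of a coding transcript.

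**Figure D1:**
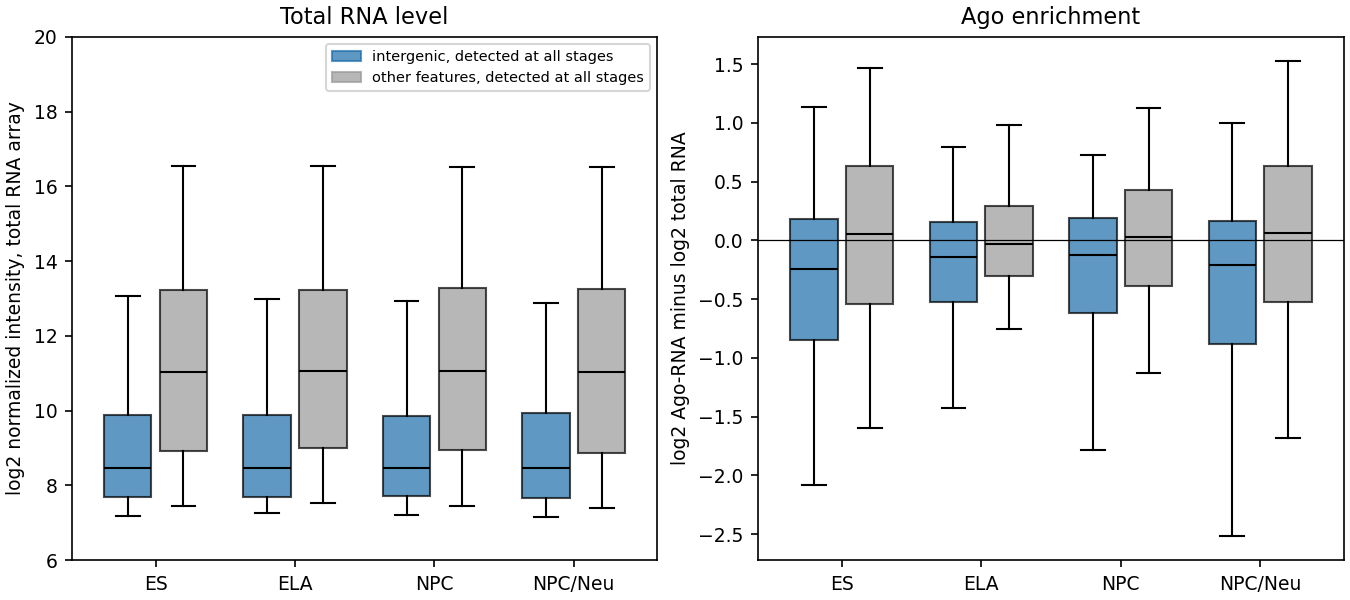
Total RNA level (left, log2 normalized intensity) and Ago enrichment (right, log2 Ago-RNA minus log2 total RNA) of the intergenic transcripts (blue) and of the other probes detected at all stages (grey), by stage. Boxes span the quartiles with the median as a line and whiskers reach the 5th and 95th percentiles of probes on 1 array per condition; the intergenic boxes lie lower in both panels, with median enrichment of -0.24, -0.14, -0.12 and -0.21.

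Ago enrichment of the intergenic transcripts leaned to the low side at each stage. In stage order its median was -0.24, -0.14, -0.12 and -0.21, and that of the other detected probes 0.06, -0.03, 0.03 and 0.06. The differences between these medians were -0.30, -0.11, -0.15 and -0.27.

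A ratio of -1 or lower, that is an intensity at least 2-fold lower with Ago than in total RNA, was found for 1014 members in ES (20.6%), where 14.4% of all detected probes had one. The numbers were 505 in ELA (10.3%, background 4.03%), 754 in NPC (15.3%, background 8.27%) and 1099 in NPC/Neu (22.3%, background 15%). Of these low ratios, 819, 348, 561 and 746 had an Ago-RNA spot well above background, and for the rest the ratio is a bound. A ratio of 1 or higher was found for 317 in ES (6.43%, background 12.6%), 137 in ELA (2.80%, background 4.38%), 125 in NPC (2.54%, background 6.07%) and 247 in NPC/Neu (5.02%, background 12.5%). The intergenic transcripts thus lay above the background on the low side and below it on the high side at each stage. Since total RNA is in the ratio and also in the rule, and the members are dim, these shares are to be read beside the values by level below. Low ratios made up 76.2% of both kinds together in ES, 78.7% in ELA and 85.8% in NPC. With scaling to the 75th percentile the ES share was 87.3%, and with separate normalization of Ago-RNA and total RNA arrays it was 66.5% in ELA and 75.4% in NPC. The median of all detected probes was -0.01 in ES as reported, -0.31 with the first and 0.17 with the second of these scalings.

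The ratio of a transcript was similar from stage to stage. Over members, Pearson's r of enrichment between stages ran from 0.70 (ELA and NPC/Neu) to 0.86 (NPC and NPC/Neu), with no array shared by any 2 stages and 1 probe design shared by all. At all 4 stages, 328 members in 176 stranded regions were at -1 or lower (6.74% of the 4866 with all values, background 2.75%). Of the 328, 183 were well above background on every Ago-RNA array. At 1 or higher at all stages were 26 members in 14 stranded regions (0.534%, background 0.671%). Counting these, 1930 members (39.7%) were below 0 at all 4 stages, where 27.5% of the other detected probes were, and 758 (15.6%) were above 0, where 28.1% of the others were.

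A low ratio at one stage and a high one at another was found for 18 members (0.370%, background 0.251%), a group chosen after the values were seen. Of the 18, 13 lay in 4 stranded regions. In chr10:117021051-117038683 on the forward strand, where no gene is annotated, 5 probes averaged 1.57 in ES, -1.32 in ELA, -0.61 in NPC and then 1.24 in NPC/Neu. They share 52 to 56 of 60 bases with coding transcripts of Kifc1, a kinesin motor, and Kifc1's own probe had 1.85, -1.64, -0.97 and 1.24. The probe that shares most is printed with the bases that differ in capitals.
Kifc1-like region, chr10:117032592-117032651 on the forward strand: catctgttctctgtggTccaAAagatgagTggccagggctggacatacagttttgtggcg

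The medians were lower in brighter members up to a level of 14. Total RNA sets these bins and is also the subtracted term of the ratio, so level and ratio are not independent. In ES, log2 Ago-RNA of members was never below 5.71, which leaves dim members less room for a low ratio. The part of these limits in the order was not tested, and the bins were not repeated with another offset or scaling. Members with a mean log2 level of 8 or less had a median enrichment of -0.04 in ES, while the other probes of that level had 0.14. Between 9 and 10 the medians were -0.45 and 0.19, and between 12 and 14 they were -0.79 and 0.05. In NPC/Neu the corresponding pairs were -0.04 and 0.16, -0.36 and 0.23, and -0.92 and -0.03. In ELA they were nearer to each other, with -0.31 and -0.10 between 12 and 14. Without the members within 5 mismatches of a coding transcript, the median between 12 and 14 was -1.15 in ES, -0.39 in ELA, -0.52 in NPC and then -1.08 in NPC/Neu (204 members). Above 14 the median of all members was -0.99 in ES, lower than between 12 and 14, but -0.18, -0.36 and -0.79 at the later stages, less negative than there. Intron members were lowest in ES between 10 and 12, at -1.45, and had -0.89 between 12 and 14 (26 members).

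**Figure D2:**
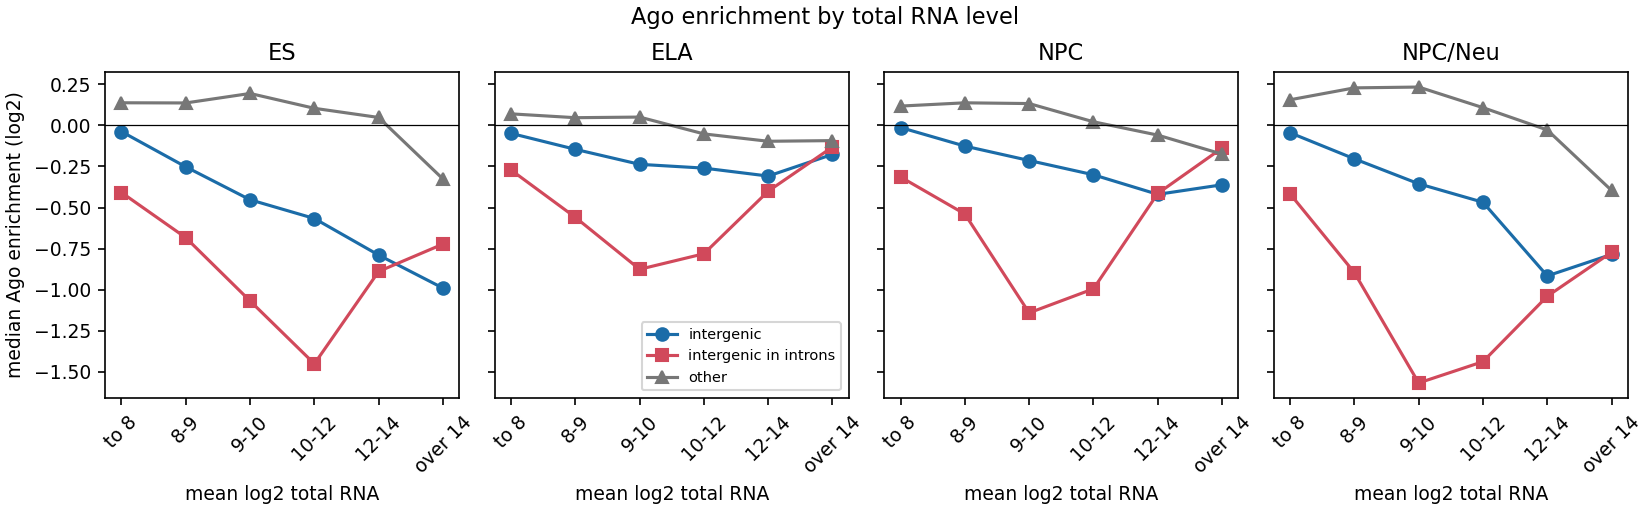
Median Ago enrichment (log2) at each stage by mean log2 total RNA level over the 4 stages, for the intergenic transcripts (blue circles), those of them in introns (red squares) and the other detected probes (grey triangles); each point is a median over probes of 1 array pair. Blue points lie below grey ones in each bin and panel, and intron probes between 9 and 10 reach -1.57 in NPC/Neu.

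By position, the transcripts within introns had the lowest and those within coding exons the highest ratios. Intron probes had medians of -0.71 in ES, -0.49 in ELA, -0.48 in NPC and then -0.82 in NPC/Neu, and 36.7%, 24.2%, 31.3% and 43.7% of them were at -1 or lower. The ES median of introns was -1.67 with scaling to the 75th percentile, -1.23 with the processed signal and -0.41 with only probes well above background on all 8 arrays. Noncoding exons followed with -0.59, -0.27, -0.24 and -0.34. Where no gene lay the medians were -0.21, -0.12, -0.08 and -0.18, and opposite a gene they were -0.20, -0.11, -0.06 and -0.17. Probes downstream of coding genes had 0.05, -0.05, -0.07 and -0.07, and those in coding exons 0.29, 0.16, 0.13 and 0.12. Of the 328 members at -1 or lower at all stages, 129 lay in introns, which is 17.6% of the intron probes with all values, and 10 in coding exons (2.10%). Of the 26 at 1 or higher at all stages, 21 lay in coding exons and none in introns.

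**Figure D3:**
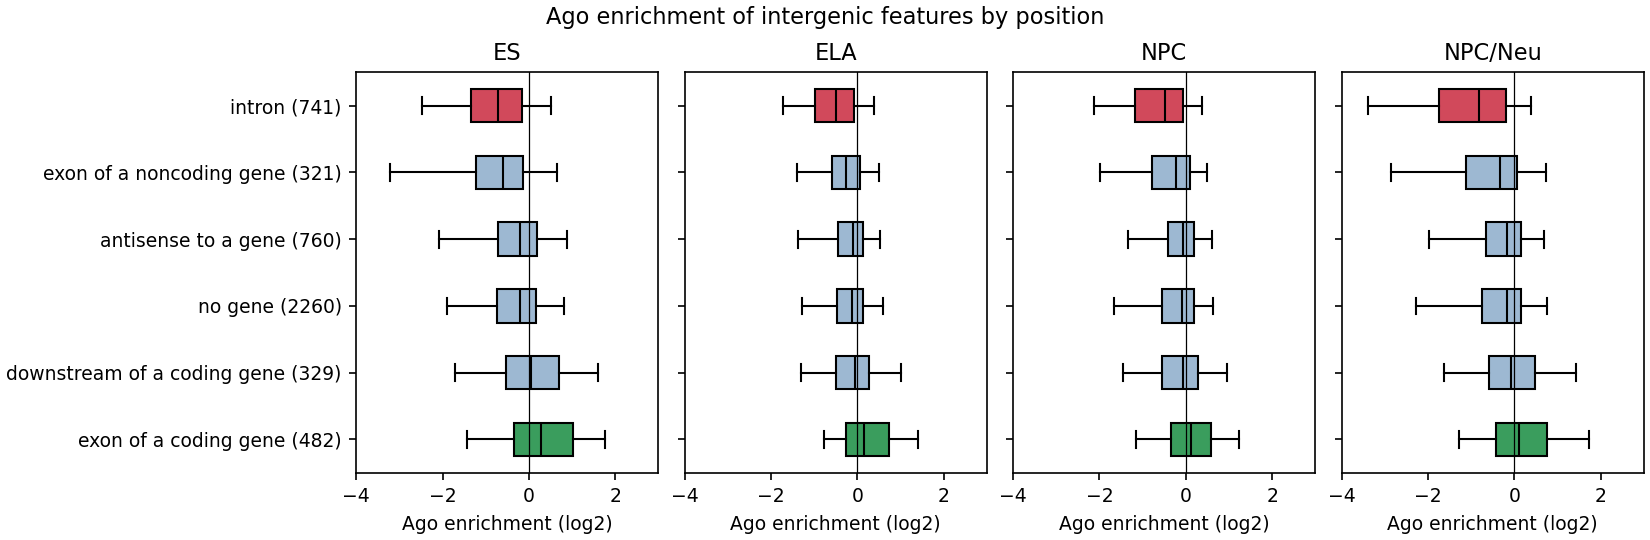
Ago enrichment (log2) of the detected intergenic probes at each stage by their position in the GENCODE vM1 annotation, with the number of probes in parentheses; boxes span the quartiles, lines are medians and whiskers reach the 5th and 95th percentiles. The intron box (red) has its median between -0.82 and -0.48 and the coding exon box (green) between 0.12 and 0.29.

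An intron probe could be set beside the gene that holds it for 462 members in 139 genes whose own probes were detected. The median enrichment in ES was -0.82 for the intron probes and 0.82 for the genes' own probes, and the intron probe was the lower in 383 of 462 pairs (82.9%). In NPC/Neu the medians were -1.06 and 0.60, with the intron probe lower in 386 of 460 (83.9%). In contrast, probes in coding exons had medians of 0.29 in ES and 0.14 in NPC/Neu, beside 0.64 and 0.40 for the genes' own probes, and were lower in 58.6% and 62.0% of the pairs. In noncoding exons the medians were -0.95 for members and -1.20 for own probes in ES (122 members, 35 genes), and the member was the lower in 40.2% of the pairs. The change in total RNA from ES to NPC/Neu had an r of 0.59 between intron probe and gene, 0.69 for coding exons, 0.58 downstream of coding genes and 0.84 for noncoding exons. Where an intron probe and its gene both changed by 1 or more on the log2 scale, 87 of 90 pairs moved the same way. A member whose 5′ end lay within 5000 bases of a coding gene's start on the other strand had an r of 0.11 with that gene's change (361 members, 139 genes), and of 49 pairs that both changed by 1 or more, 29 moved the same way. In all of these, probes of 1 gene share their target and are not independent.

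The members with the highest mean enrichment were mostly parts of coding genes. The region chrX:6790023-6896433 on the reverse strand, an exon of the chloride channel gene Clcn5, had 1.93 in ES, 1.98 in ELA, 2.41 in NPC and then 4.25 in NPC/Neu, at a total RNA level of 7.24 to 8.22. This is the highest of its 3 probes, which together averaged 1.43, 1.46, 1.68 and 3.36. The same region holds Mir500, Mir501, Mir362, Mir188 and Mir532. Clcn5's own 3 probes had 0.35, 0.49, 1.02 and 1.87. The region chrX:12758189-12760546 on the forward strand, downstream of the deubiquitinase gene Usp9x, had 2.54, 1.00, 1.98 and 2.68, beside 2.51, 0.88, 1.5 and 2.63 for the gene's own probe, and its probe matches an Usp9x transcript at all 60 bases. Both named probes were above 0 at each stage by more than 4 times the SD between spots. They were chosen for a high mean ratio, so this is a description.

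The coding gene Gm15800 at chr5:121778090-121779622 had 2.23, 1.12, 2.06 and 2.24, and its own probe 2.09, 0.48, 1.81 and 2.65. Macf1, a linker of microtubules and actin, at chr4:123171177-123177198 had 1.71, 1.51, 1.84 and 2.53, and its own probe 1.71, 1.23, 2.07 and 2.81. The only region among these 5 with no annotated gene and no near copy was chr5:143200557-143204033 on the reverse strand. It had 1.70, 3.07, 1.52 and 1.82 at levels of 8.48, 7.89, 11.61 and 12.31, and rests on 1 probe.

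The 5 regions with the lowest mean ratio over the stages, taking 1 probe per region, were bright and well above background on all arrays. At single stages other probes went lower, to -4.62 in ES, -3.08 in ELA and -5.09 in NPC/Neu. Gm10060, a long intergenic RNA at chr8:19792940-19798868, read 13.58, 13.46, 14.17 and 14.68 in total RNA and had ratios of -3.79, -2.63, -3.70 and -4.82. Its 3 probes had mean ratios between -3.74 and -3.61. Malat1, at chr19:5771425-5848475, read 14.07, 14.01, 13.55 and 14.25 with ratios of -4.59, -2.60, -3.01 and -4.28. The array's own Malat1 probe had -4.39, -2.47, -2.95 and -4.16.

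A transcript of no annotated gene at chr7:99882675-99883730 on the reverse strand read 11.55, 11.59, 12.99 and 13.40 with ratios of -3.59, -2.56, -3.69 and -4.48. Its 3 probes differed, with mean ratios from -3.58 to -1.93. The region chr10:66627543-66629331 on the forward strand, in an intron of Jmjd1c, which encodes a histone demethylase family protein, had -4.0, -2.57, -2.93 and -4.12. This is the lowest of its 3 probes, whose mean ratios ran from -3.40 to -1.75 and whose mean levels ran from 8.39 to 11.96. The region chr17:39960567-39992817 on the reverse strand had -3.43, -2.60, -3.17 and -4.37, and its 5 probes had mean ratios between -3.39 and -3.07. Its coordinates enclose chr17:39982023-39983277, the bright forward-strand region given above. For both, copies of ribosomal RNAs were not searched for, so what these probes report is open. All 5 transcripts had their least negative ratio in ELA, where the ratios of all detected probes were also narrowest.

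Named long noncoding RNAs were looked up from a list of 35. Of these, 24 had probes of their own name and 20 of the 24 had at least 1 detected at all stages. 11 of the 35 genes held 84 members, and 9 had both. The mean ratio of the members was below 0 in 10 of the 11 genes in ES, 10 in ELA, 9 in NPC and then 10 in NPC/Neu. It was -1 or lower in 7, 2, 3 and 7, and 1 or higher in none at any stage. These counts hold for the 11 genes only. H19, which is in the list, had own probes at 0.02, 1.05, 1.91 and 0.66 (7 probes, 2 detected at all stages). Outside the list, the 8 members of Tug1 averaged 0.82, 1.06, 0.14 and 0.64. Malat1's 7 members averaged -3.75, -1.42, -2.35 and -3.85. Mirg and Rian are imprinted noncoding genes of the Dlk1 domain on chromosome 12 that carry microRNAs and small nucleolar RNAs. The 12 Mirg members averaged -1.77, -1.23, -0.83 and -1.35, and the gene's own 2 probes -3.21, -1.80, -2.38 and -2.88. The 11 Rian members averaged -1.39, -0.61, -1.0 and -1.38. For Pvt1, the neighbour of Myc, the 11 members averaged -1.08 in ES and -0.31, -0.23 and -0.24 later, beside -1.28, -0.48, -0.33 and -0.28 for its own 2 probes. Airn, the antisense transcript of the imprinted Igf2r locus, was the exception among the 11 in ES, with 3 members at 0.29, 0.14, 0.26 and 0.07, whereas the gene's own 4 probes, of which 2 were detected at all stages, had -0.69, -0.47, -0.94 and -1.04.

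Of noncoding genes with 10 or more members, a group chosen after the values were seen, 2700023E23Rik and 4933404O12Rik were not in the list and 2610307P16Rik was. The 20 members of 2610307P16Rik, on chromosome 13, rose from a mean level of 8.89 in ES to 10.54 in NPC/Neu, and their mean ratio went from -1.16 to -2.31. The 11 members of 2700023E23Rik, on chromosome 5, fell from 13.29 to 11.09 and their ratio went from -3.05 to -1.67. The 10 members of 4933404O12Rik fell from 11.84 to 10.17 with ratios of -0.50 and 0.27. In each of the 3 genes, of ES and NPC/Neu the stage with the higher level had the lower ratio. In 2 of them this order did not extend to ELA. There the ratio of 2700023E23Rik was -0.92 at a level of 12.86, and that of 2610307P16Rik was -0.94 at 9.13. The members of 2610307P16Rik were unlike each other, with mean ratios from -3.28 to 0.42. Total RNA is the subtracted term of the ratio, so the 2 are not independent, and the part of this in the order was not tested.

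Regions that hold an annotated small RNA gene on the same strand were also set apart, a grouping made after the values were seen. Small nucleolar RNA genes lay in 29 regions, and their median of the mean ratio over stages was -0.85, with 13 at -1 or lower and 27 below 0. For 43 regions with microRNA genes the median was -0.37, with 12 at -1 or lower and 30 below 0. The other 2394 stranded regions with all values had a median of -0.12, with 260 at -1 or lower (10.9%) and 1486 below 0. The median level was 9.71 for the first group, 8.86 for the second and 8.34 for the rest, and the part of level in the difference was not tested. Some of these regions overlap or lie in 1 host gene, such as Rian or Gas5, and some are in both groups. They are therefore not independent.

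Gas5, the host of many small nucleolar RNAs, had a level of 12.44 in ES, 12.01 in ELA, 10.08 in NPC and then 8.85 in NPC/Neu at chr1:162965309-162970704, with ratios of -3.84, -1.95, -2.27 and -1.97 over 2 probes. The 3 probes of a shorter region of the same gene, chr1:162965001-162966376, read 7.22 to 7.86 and had ratios of -0.32, -0.03, -0.13 and -0.11. So regions of 1 host differed by more than the spread between spots. The 7 probes of 1110038B12Rik at chr17:35080914-35090009 averaged between 10.35 (NPC/Neu) and 12.10 (ELA) with ratios of -2.98, -1.40, -1.52 and -1.98. Both hosts were dimmer in NPC/Neu than in ES. Ratios above 0 in this group were seen for chr14:67585234-67596823, with 0.42, 0.36, 0.04 and 0.15.

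Among microRNA hosts, Mir17hg at chr14:115443612-115445950, the precursor of the miR-17-92 cluster, read 12.93, 12.68, 12.91 and 11.85 with ratios of -2.74, -1.41, -2.55 and -2.59. A wider region around it, chr14:115423660-115463160, had -1.06, -0.51, -0.50 and -0.47 over 5 probes. The Mir30b and Mir30d region at chr15:68161768-68193518 rose from 8.58 and 8.13 in ES and ELA to 9.97 and 9.93, with ratios of -1.62, -1.11, -2.44 and -2.59. The Mirlet7a-1 and Mirlet7d region at chr13:48620882-48643532 on the reverse strand had -2.14, -0.98, -0.99 and -0.82. The Mirlet7b and Mirlet7c-2 region at chr15:85412264-85549139, by contrast, had 0.15, -0.00, 0.30 and -0.02 at levels of 11.10 to 11.29. So regions that hold genes of 1 microRNA family, let-7, differed by more than the spread between spots at each stage. No host gene is annotated at their detected probes, and whether these report the let-7 precursors was not tested.

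Total RNA of most intergenic transcripts moved little. Over the 4 stages 3301 of 4891 members with all values (67.5%) ranged by less than 1 on the log2 scale, 1125 by 1 to 2, and 465 by 2 or more. Of these 465, 198 were highest in NPC/Neu, 157 in ES, 65 in NPC and 45 in ELA. From ES to ELA 86 members rose by 1 or more (1.76%, background 4.19%) and 144 fell (2.94%, background 3.36%). From ELA to NPC 366 rose (7.48%, background 9.8%) and 258 fell (5.27%, background 8.77%). From NPC to NPC/Neu 211 rose (4.28%, background 4.94%) and 137 fell (2.78%, background 4.28%). Over the whole course, ES to NPC/Neu, 664 rose (13.5%, background 16.5%) and 537 fell (10.9%, background 16.5%). The shares were below the background at each step, in a group that is dimmer than the background and was chosen for being detected throughout, so that transcripts lost or gained altogether are not in it.

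The largest rises were in genes. An exon of Pvrl3, which encodes the adhesion protein nectin-3, at chr16:46384974-46391331 read 8.01, 8.87, 12.99 and 14.35, a rise of 6.34, with ratios between 0.02 and 0.75. An intron of Kalrn at chr16:34524589-34573439 read 7.05, 8.48, 10.93 and 13.23. Its ratio went to -0.93, -2.14 and -4.32 from ELA on. In ES the Ago-RNA spot was not well above background and read 6.93, beside 7.05 for total RNA. That ratio of -0.12 is within the spot SD of 0.19 for ES probes with a level under 9.

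An exon of 2610017I09Rik at chr1:42689799-42749799 read 7.43, 7.48, 13.07 and 13.59, with ratios of 0.03, -0.06, -0.85 and -1.18. The other detected probe of this region rose by 1.37. An intron of Maml3, a Notch co-activator, at chr3:51890691-51891781 read 7.75, 9.79, 10.96 and 12.75 with ratios of -1.29, -1.53 and -3.66 from ELA on. In ES its Ago-RNA was at least 2.06-fold lower than total RNA. In both introns the ratio was lowest at the stage with the highest level, which is also the subtracted term of the ratio.

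The largest falls were in regions outside coding exons. The region chr13:98267049-98267604 on the forward strand, with no annotated gene, read 13.75, 12.47, 7.55 and 8.12 with ratios between -0.28 and 0.55. Its 3 probes changed alike, by -5.63 to -5.51 on the log2 scale. The region chr7:48794017-48815817 on the reverse strand, 1130 bases downstream of Gm6871, read 12.80, 11.65, 7.68 and 7.24.

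On chromosome 13, chr13:66888650-66902600 on the reverse strand read 13.08, 11.18, 7.04 and 7.53, and its probe matches the genome at 6 places. The long intergenic RNA 2410003L11Rik at chr11:97457180-97487074 read 13.59, 13.12, 10.54 and 8.17 with ratios of -1.46, -0.52, -0.27 and 0.22. In all 4 the steepest step was that from ELA to NPC.

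**Figure D4:**
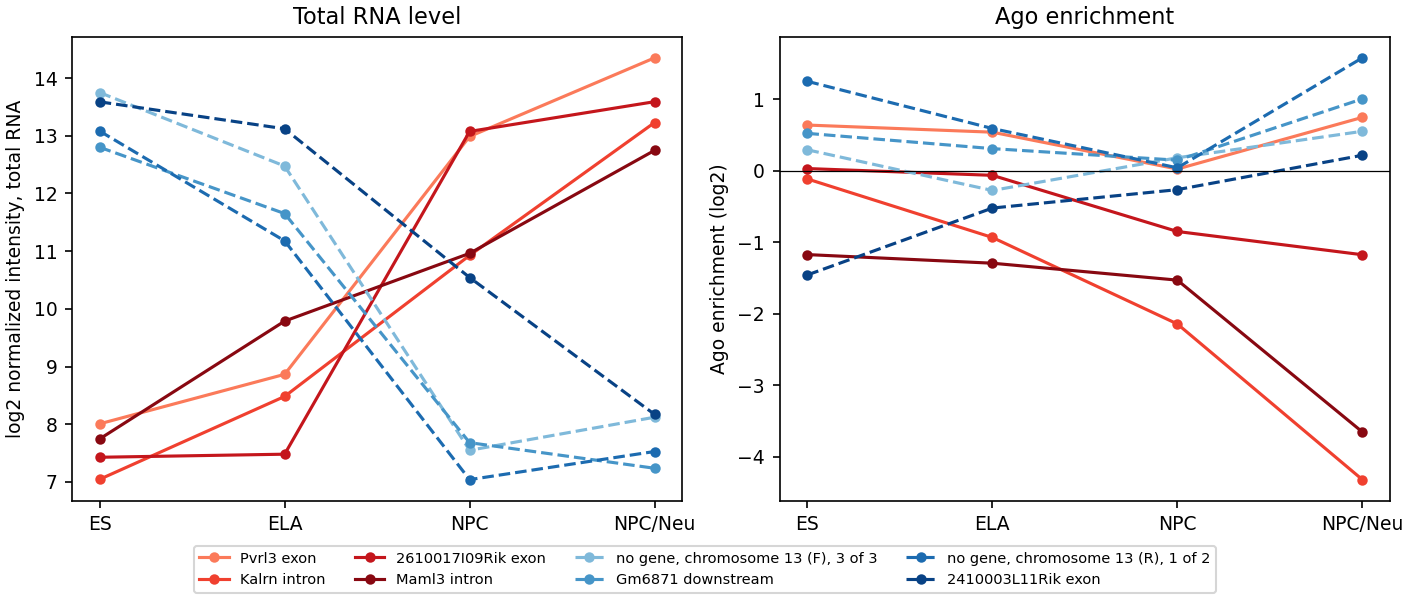
Total RNA level (left, log2 normalized intensity) and Ago enrichment (right, log2) by stage for the 4 members with the largest rise (solid, red) and the 4 with the largest fall (dashed, blue) from ES to NPC/Neu; each point is 1 spot on 1 array pair, and F and R are the strands. The changes reach 6.34 upward and -5.63 downward, and the Kalrn and Maml3 introns end at ratios of -4.32 and -3.66.

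Both strands were on the array for 1067 regions. In 462 of these a probe of each strand was detected at all stages, in 206 only the forward strand, in 225 only the reverse strand and in 174 neither. The forward strand was detected in 67.2% of the regions whose reverse strand was, and in 54.2% of those whose reverse strand was not. For 461 regions with values on both strands, the mean log2 level differed by a median of 1.10. Pairs of single probes of the same region and strand, an unlike unit, differed by a median of 0.82. The mean level of the strands differed by 2 or more in 138 regions and 4 or more in 42. The difference was below 1 in 220 (47.7%), and the forward strand was the higher by 1 or more in 125 and the reverse strand in 116. Without regions that hold a near copy of a coding transcript, the median difference was 0.93 over 376 regions.

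Correlations were lower between the strands of a region than between probes of 1 strand, though the units differ. Levels on the 2 strands had a Pearson r of 0.08, against 0.53 for 4773 pairs of probes of the same region and strand. For mean enrichment the values were 0.29 and 0.76, and for the change from ES to NPC/Neu 0.24 and 0.82. The strand values are means over the detected probes of a strand, with 1 point per region. The pairs are of single probes, so regions with many probes count more, and regions with only 1 strand detected are among them. Where both strands changed by 1 or more, in 22 regions, 19 moved the same way. In 260 pairs of a forward and a reverse probe that overlapped in position, levels differed by a median of 1.5. In the 138 regions whose strands differed by 2 or more, the brighter strand had the lower ratio in 98. The medians were -0.41 for it and -0.13 for the dimmer strand, whose median level was 7.81. Level is the subtracted term of the ratio, so these 2 orders are not independent. Regions share no array replicate, so these correlations over regions and pairs are descriptions.

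**Figure D5:**
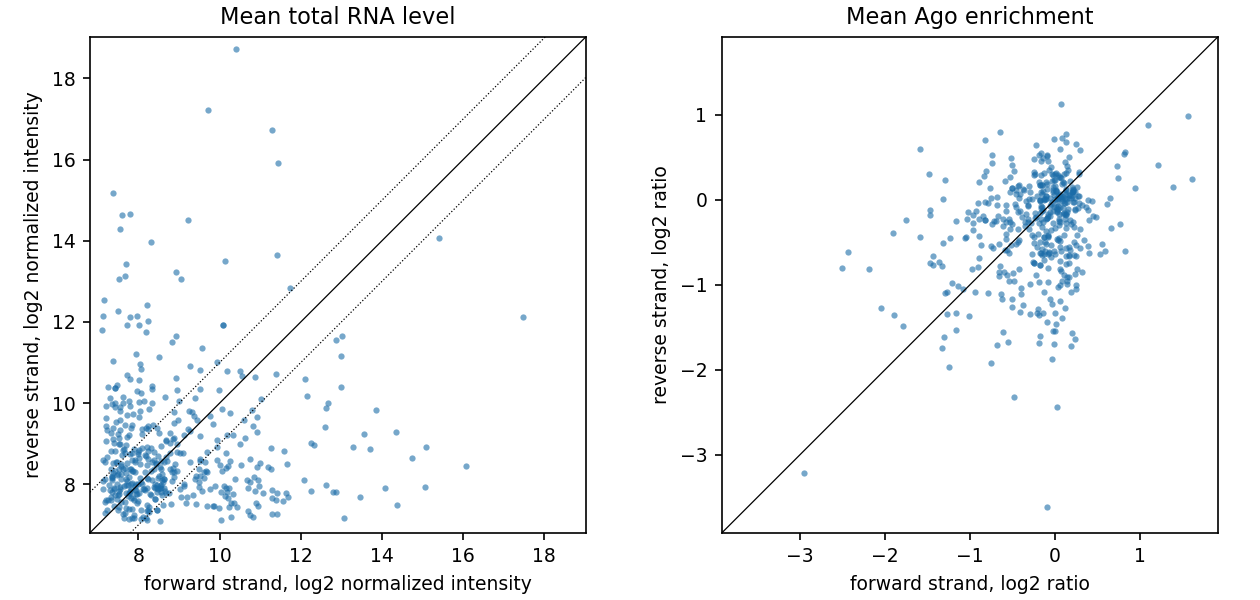
Forward against reverse strand of the 461 regions with both strands detected at all stages: mean log2 total RNA (left) and mean Ago enrichment (right) over the 4 stages, 1 point per region, with the line of equality and dotted lines at a difference of 1 on the left. Levels spread to both sides (Pearson r of 0.08), while 220 regions lie between the dotted lines.

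The largest strand difference, 8.32, was at chr11:22681800-22707775, where the reverse strand holds the probe that resembles Rps16. At chr5:26323150-26357875 the reverse strand read 15.00, 15.50, 15.06 and 15.14 and the forward strand, opposite Gm5862, 7.39, 7.63, 7.19 and 7.30. Ratios there were -2.50, -0.49, -0.84 and -2.48 on the reverse strand and between 0.14 and 0.30 on the forward one. At chrX:18744367-18853992 the forward strand was the brighter, with 15.91, 16.19, 16.09 and 16.14 against 8.94, 8.46, 8.53 and 7.92. At chr2:167085700-167117795 the reverse strand, an exon of Gm11473, read 17.33, 17.23, 17.30 and 17.08 against 9.70, 9.80, 9.74 and 9.65. Of these 3, none was within 5 mismatches of a coding transcript over the whole probe. However, Gm11473 is annotated as a pseudogene, and its probe shares 51 of 59 aligned bases with Rps16 transcripts when an end may overhang, against 23 and 29 of 60 for the other two. The order of the strands was the same at each stage.

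The smallest differences were at levels near the limit of detection in 3 of 4 regions. At chr14:78214602-78226287, downstream of Dnajc15 on its reverse strand and opposite the gene on the forward strand, the means were 7.57 and 7.57. At chr3:151746091-151753763 they were 7.77 and 7.78, and at chr2:22753100-22780375, an intron of Pdss1 on the forward strand, 7.78 and 7.79. The fourth, chr2:174088550-174109425, contains Mir296 and Mir298 on its reverse strand within the imprinted Gnas domain, and its strands had means of 8.78 and 8.77 but different courses. The forward strand read 8.69, 8.97, 8.90 and 8.54 with ratios of -1.45, -1.48, -1.47 and -1.47. The reverse strand read 9.73, 8.36, 8.99 and 8.01 with ratios of -2.01, 0.23, -0.52 and -0.68. Equal means over the stages thus did not stand for equal transcripts.

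At the threshold of the rule itself, the dimmest members were chr7:106525007-106525661 on the reverse strand, at 6.96, 7.07, 6.80 and 7.04, chr1:90149027-90152254 on the forward strand, an exon of Heatr7b1, at 7.04, 7.15, 6.85 and 7.00, and chr5:113594167-113645342 on the reverse strand, at 7.07, 7.11, 6.93 and 6.95. Probes just outside, detected on 3 of 4 arrays, had a median of 7.25 and reached 10.83, so that detection and level do not order the probes alike. For the first of these 3 the Ago-RNA spot was well above background at no stage, and 222 members were in this position. At such levels a ratio is a bound on one side.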

How the data were processed

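Total RNA and Ago-RNA of 4 stages were hybridised to 8 one-colour Agilent arrays, 1 per condition, each with RNA pooled from 3 experiments. Per the labels, 50 ng of RNA were labelled. The authors deposited scanner output with mean and background intensities per spot. Feature Extraction is given as 10.7.3.1 per the file headers and as 9.1 in the submitters' processing notes. Flags for spots well above background were used as deposited. Groups came from the labels.

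Intensities were background-corrected (normexp, offset 50) and quantile normalized over the 8 arrays with limma 3.58.1 in R 4.3.3, with control spots left out after the correction and irregular spots left out. Repeated spots were averaged, and a repeated probe counted as detected where at least 50% of its spots were. Counts used Python 3.11.15, numpy 2.4.6, pandas 2.3.3 and matplotlib 3.10.9. Background correction, normalization and the ratio were tested on a simulated pair of arrays, with effects placed in intergenic probes of a level above 9. Most members are at or below that level. Detection, positions and strands were not tested in this way. Probe positions are those of the files (mm9) and were looked up in GENCODE vM1 of the same build, where 4882 probes were found at their stated place. A change or a ratio was counted from 1 on the log2 scale (2-fold). With 1 array per condition there was no test. The number of arrays limits the precision.

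Named regions, 1 probe each, are the 6 with the highest level, 5 each with the highest and lowest mean enrichment, 4 each with the largest rise and fall, the 4 largest and 4 smallest strand differences, and the 3 dimmest. The members and lists were chosen with earlier results of these data known. Groups by small RNA genes, noncoding genes with 10 or more members, the search for near copies and the members with opposite ratios were chosen after the values were seen. Alternatives were the offset, the processed signal with quantile or 75th percentile scaling, separate normalization of Ago-RNA and total RNA arrays, a filter on all 8 arrays, irregular spots, the rule for repeated spots, and averaging by region.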

Additional observations from a re-analysis of the deposited data

Results flagged for a closer look

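Some regions had opposite Ago enrichment at different stages. These differences were not tested, since each stage has 1 array pair. The 5 probes of chr10:117021051-117038683 on the forward strand averaged 1.57 in ES, -1.32 in ELA, -0.61 in NPC and then 1.24 in NPC/Neu. The 3 probes of chr17:34018371-34019394 on the reverse strand, an exon of Kifc1, averaged 1.83, -1.61, -0.96 and 1.40. The first region shares up to 56 of 60 bases with Kifc1 transcripts.

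The other pair of regions ran differently. The 2 probes of chr14:55433382-55452757 on the reverse strand averaged -1.24, 0.43, 1.99 and 1.0, and the 3 probes of chr5:96591892-96606467 on the forward strand averaged -1.29, 0.34, 1.87 and 0.84. Their probes share 59 of 60 bases with the other region. Probes of the first also share 59 and 57 bases with coding transcripts of Gm5331 and Ifitm2. Probes of the second share 59 and 58 with Gm5331.

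A signal outside the rule came from 6 intergenic probes that were well above background on all 4 Ago-RNA arrays and on no total RNA array. In stage order, log2 Ago-RNA was 7.05, 9.55, 7.60 and 7.35 for chr5:14943275-14944205 on the forward strand, and 7.25, 9.47, 7.68 and 7.35 for chr5:15146475-15170100 on the forward strand. Both were highest in ELA, and their probes match the genome 5 and 6 times. For chr10:3227840-3233588 on the forward strand, downstream of Cnksr3, it was 7.19, 7.33, 7.47 and 7.23. For chr19:7458725-7474825 on the forward strand it was 6.97, 7.50, 7.76 and 7.12. For chr5:33174092-33200792 on the forward strand it was 6.82, 7.07, 7.28 and 8.17. For chr1:141070245-141076841 on the reverse strand, opposite Dennd1b, it was 7.51, 7.07, 7.24 and 7.57.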

How the results depend on the processing

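No paired analysis was possible because each condition has 1 array, and for the same reason no array could be left out. Of 266 comparisons of summary values with an alternative, 214 stayed within 1.5 times the reported share or count, or within the spot SD for a median, 52 moved further and none changed sign. Members minus other probes in median enrichment stayed below 0 in all, from -0.61 to -0.21 in ES, -0.28 to -0.04 in ELA, -0.39 to -0.07 in NPC and then -0.74 to -0.18 in NPC/Neu. Of 157 comparisons for named regions 73 moved by more than the spot SD and none changed sign. Among the summary values, the offset, irregular spots and the rule for repeated spots moved none past these limits. With an offset of 16, however, 9 of 27 values of named regions moved by more than the spot SD. The low ratios were then 24.4%, 13.7%, 18.1% and 25.4%. Causes of the moves were not tested.

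With the processed signal and quantile normalization, members minus others in level were -2.94, -2.97, -2.95 and -2.92. Ratios of -1 or lower made up 32.2% in ES, 20.2% in ELA and 23.6% in NPC, and of 1 or higher 5.28% in ELA, 4.67% in NPC and then 7.60% in NPC/Neu. Rises made up 4.80% (ES to ELA) and 12.1% (ELA to NPC), and falls 4.92%, 9.15% and 5.42% at the 3 steps. The intron median in ES was -1.23 and the strand difference 1.47.

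With the 75th percentile, level differences were -2.78 in ES and -2.80 in ELA. Median enrichment was -0.80 in ES, -0.49 in NPC and -0.81 in NPC/Neu, and members minus others -0.61, -0.39 and -0.74. Low ratios made up 43.1%, 24.3%, 31.0% and 43.4%. Rises were 3.90%, 11.4% and 6.49% at the 3 steps, and falls 4.84% and 8.46% at the first 2. The intron median in ES was -1.67 and the strand difference 1.38. The median of all detected probes was shifted to -0.31, -0.13, -0.16 and -0.21.

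With separate normalization, level differences were -2.37, -2.40, -2.39 and -2.36, and high ratios 4.67% in ELA and 4.49% in NPC. With probes well above background on all 8 arrays, which leaves 3758, level differences were -2.41, -2.39 and -2.43 up to NPC, low ratios 6.61% in ELA and 10.2% in NPC, and the intron median in ES -0.41. With probes of a region averaged, high ratios were 3.90% in ES, 1.74% in ELA and 3.23% in NPC/Neu, and falls from NPC to NPC/Neu 1.69%.

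Signal over background limits the ratios of dim transcripts, since 222 members were well above background on no Ago-RNA array. The spot SD holds no error of culture, precipitation or labelling.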
